A study of Bos taurus with 96 samples.

Results

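Intramuscular fat (IMF) was compared with omental fat (Omen) in beef cattle, with 12 arrays of each depot, which are 24 of the 96 one-colour arrays of the series. All arrays labelled with either depot were taken. In each depot 4 arrays came from Angus, 4 from Hereford and 4 from Wagyu x Angus steers. All these steers were fed on pasture alone after weaning, were then grain fed in a feedlot for 259 days and were slaughtered at about 26 months of age. IMF was dissected by hand from the longissimus dorsi (LD), the long muscle of the back that gives the loin cuts, and Omen was taken from the fat sheet of the abdominal cavity. The 36 arrays of LD muscle with its fat in place, 24 from pasture and 12 from supplement fed animals of the same breeds and some of them from an earlier slaughter, served only to mark the probes that muscle carries. Labelling of each sample started from 50 ng of its total RNA. Both depots were dissected from the same small set of steers, so most animals must be in both groups. The labels do not tie arrays to animals, so the test treats the arrays as independent, and p-values measure only the spread between these samples.

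Marbling, the visible IMF of beef, lies as small islands of adipocytes between muscle fibre bundles, next to perimysium (the collagen sheath of the bundles), small vessels and nerves. Omental fat hangs in the peritoneal cavity, is covered by mesothelium, the flat epithelium that lines the cavity, and carries immune cells. Both store triacylglycerol, but they arise in different parts of the body plan. HOX and other patterning genes often stay on in adult fat as a record of that origin.

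Expression is given as relative signal, which is log2 of the processed signal after subtraction of the array's own 75th percentile, and a difference is always IMF minus Omen on that log2 scale, so that a difference of 1 is a 2-fold change. The test was limma with breed as a covariate, and a probe was called at an adjusted p under 0.05 over all 34227 probes. Between 76.6% and 91.5% of probes were well above background on the IMF arrays and between 77.6% and 96% on the Omen arrays. Arrays of one depot correlated at 0.946 to 0.990 (IMF) and 0.960 to 0.989 (Omen), and arrays of different depots at 0.875 to 0.948. All IMF arrays and 10 Omen arrays shared 1 scan day, while no slide held both depots. Spots that the scanner software marked as outliers were left out, so some genes rest on 11 or 10 arrays of a depot.

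Both tissue labels needed a qualification. All 14 measured skeletal myofibre markers were far above the Omen level in IMF, with a summed signal (in multiples of the array's 75th percentile) of 1310 to 3840 against 1.59 to 2.56 in Omen and a median of 6360 in LD. Defined over the muscle probes described below, the muscle share of an array is its median position, in percent, on the way from the Omen mean to the LD mean on the linear scale. It was 27.7% ± 15.3 (SD, n = 12) in IMF, with 7 arrays between 8.13% and 26.2% and 5 between 41.4% and 48.2%, and −0.979% to 1.25% in Omen. On the Omen side, mesothelin (MSLN), a surface protein of mesothelium, was at 0.09 to 0.72 on 5 arrays and at −6.09 to −3.79 on the other 7, so these 5 arrays stood apart. They came from all 3 breeds and from 4 slides, and values without them are given below where genes that are described lost their call. Since MSLN chose these arrays, what their removal does to MSLN, or to a gene that splits the Omen arrays the same way, is a description.

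The depots differed at 57.3% of probes (19619 of 34227 by limma), of which 9755 (28.5% of probes) were higher in IMF and 9864 (28.8%) higher in Omen, around a median difference of 0.02. Over all probes, larger differences leaned to IMF. At least 2-fold higher were 2903 called probes in IMF and 1998 in Omen, and at least 4-fold 1050 and 240. The 12 IMF and 12 Omen values did not overlap at 8.44% of probes, made up of 1742 higher in IMF (5.09%) and 1146 higher in Omen (3.35%). Outside the muscle probes set apart below, each of these counts leaned to Omen. On the scan day that both depots share, 12 IMF and 10 Omen arrays gave 19191 called probes. With so many probes called, each count below has to be read against these shares. Since whole tissue was measured, fewer cells of a type and less RNA per cell cannot be told apart.

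Probes whose mean in LD exceeded the mean in Omen by more than 2 were set apart as the muscle set. It held 2665 probes (7.79%), and its values are a description with no test, because Omen enters both the choice and the difference. IMF lay above Omen at 2664 of them, with a median difference of 1.44, while LD lay above Omen by a median of 2.88. The most distant genes were contractile. MYL2, a slow myosin light chain, was at 6.85 to 8.50 (median 8.17) in IMF and −9.69 to −4.95 (median −8.34) in Omen, a difference of 16.00, and had a mean of 8.87 in LD. MYH2 and MYH1, fast myosin heavy chains, differed by 15.92 and 14.92, and SLN (sarcolipin, a regulator of the muscle calcium pump) by 14.44. Only 2, 1, 2 and 1 of the 12 Omen arrays had these genes well above background, so the sizes depend on the background correction. With normexp, another correction that starts from the median spot signal and adds an offset of 50, they lay between 9.81 and 11.84. The limit runs through a continuum, with HDGF at 2.0003 and FBXO15 at 2.0001 just inside it and ANAPC11 at 1.9998 and DDX39A at 1.9993 just outside.

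Outside the muscle set, 7143 of 31562 probes (22.6%) were higher in IMF and 9864 (31.3%) higher in Omen. Here the 2-fold differences numbered 865 and 1998, the 4-fold differences 161 and 240, and the called probes without overlap 458 and 1146. Of the 7143 probes higher in IMF, 2267 (31.7%) had an IMF mean above the LD mean, and for 1031 LD was at or below Omen. For the other 4876, LD was at or above IMF. Of the probes higher in Omen, 7330 had LD at or below IMF, so at most of them IMF lay between muscle and omental fat. What part muscle RNA takes in the difference of a given probe was not tested. Beside each list the number of its calls kept with the muscle share of each array as a covariate is given, with values for some genes. That covariate was added after the data had been seen, and the lowest share in IMF was 8.13%, so its values for IMF without muscle are extrapolated.

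**Figure D1:**
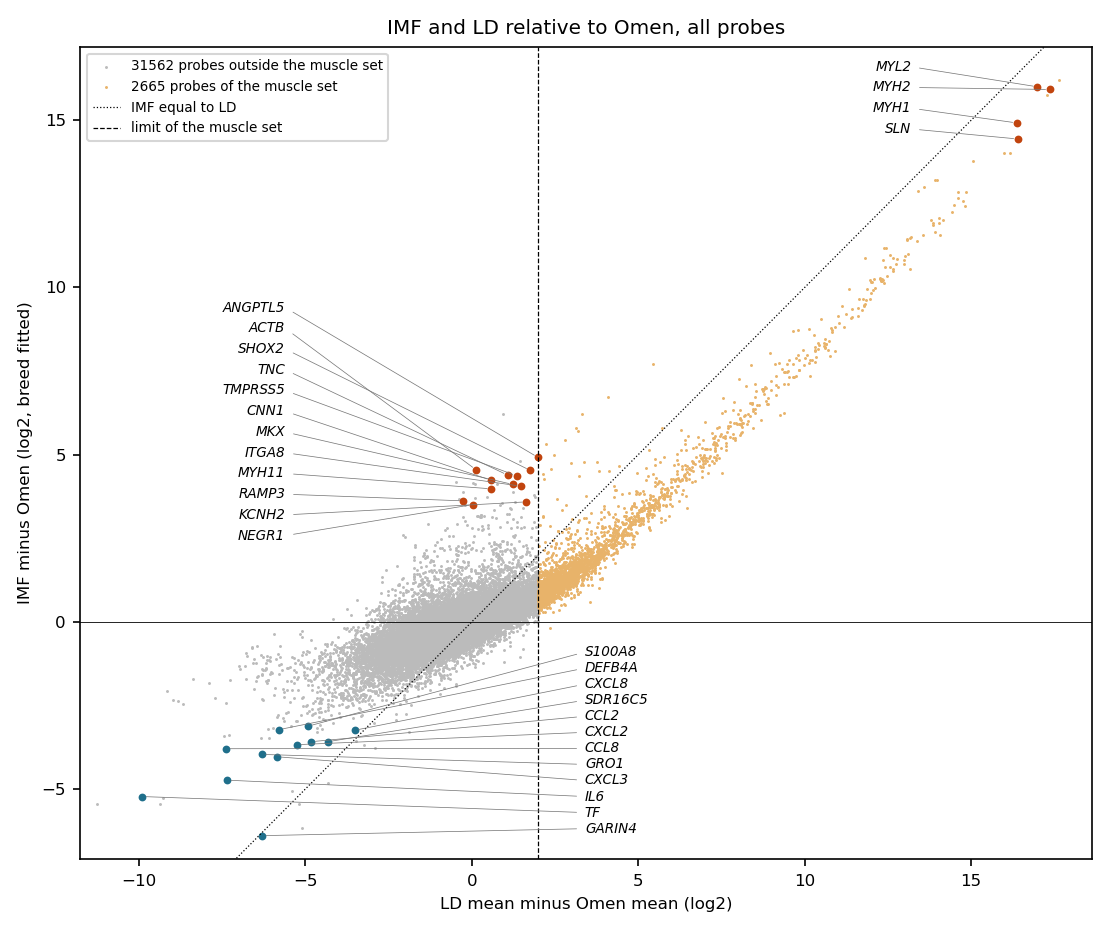
Each point is a probe, with the mean of 36 LD arrays minus the mean of 12 Omen arrays on the horizontal axis and IMF minus Omen, breed fitted, on the vertical axis, both in log2 units. The muscle set lies right of the dashed line at 2, and the 4 named muscle genes stand at the top right. The dotted line marks IMF equal to LD, and the named genes outside the muscle set, at 3.51 to 4.92, lie above it by the rule that chose them.

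The named genes highest in IMF outside the muscle set were the 12 with the largest differences among those with no overlap between depots. They were ANGPTL5, ACTB, SHOX2, TNC, TMPRSS5, CNN1, MKX, ITGA8, MYH11, RAMP3, KCNH2 and NEGR1, with differences from 4.92 down to 3.51. On the Omen arrays ANGPTL5, TMPRSS5 and NEGR1 were well above background on 7, 3 and 7 of 12, so the sizes of their differences are uncertain, and with normexp background correction they were 2.48, 1.59 and 1.32. Of these, 11 had their highest mean in IMF among the 5 fat depots of the series, while an IMF mean above LD follows from the rule that chose them. All 12 kept their call when muscle share was a covariate. ANGPTL5, an angiopoietin-like secreted protein, was at −2.55 to 0.00 (median −1.27) in IMF and −8.68 to −3.84 (median −6.45) in Omen. Its difference was 4.92 ± 0.43 (SE, limma adjusted p = 5.19e-09), and its subcutaneous mean of −0.17 was higher still. ACTB, cytoplasmic actin, rests on 1 of 5 probes. Its named probe differed by 4.55 and the other 4 by 4.52, 1.36, −0.19 and −0.36, and actin paralogs share much sequence, so this gene is uncertain. RAMP3, a partner of the calcitonin-like receptor, was at −0.39 to 1.54 (median 0.84) in IMF and −3.79 to −1.44 (median −3.02) in Omen (3.62 ± 0.25, adjusted p = 4.45e-11). Its mean in LD was −3.17. ITGA8, an integrin subunit of mesenchymal and smooth muscle cells, was at −1.06 to 2.04 in IMF and −5.32 to −2.75 in Omen (4.06 ± 0.36, adjusted p = 3.67e-09). KCNH2, a potassium channel, and NEGR1, a neuronal adhesion protein, differed by 3.59 and 3.51.

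Smooth muscle genes were mostly higher in IMF. Of 13 measured, 12 were higher in IMF, none was higher in Omen, and the median difference was 2.66, against a median of 0 and 62.4% called over 10660 genes read by 1 probe each. For 10 of the 13 the arrays of the depots did not overlap. DES, ACTG2, SYNM and SYNPO2 belong to the muscle set, and the median summed signal of all 13 genes was 724 in IMF and 753 in LD. Over the other 9 genes, of which 8 were higher in IMF, the median difference was 2.46 and the summed signal was 205 to 1310 in IMF and 124 to 220 in Omen, with a median of 69.6 in LD. CNN1, calponin of smooth muscle, was at 3.83 to 7.83 (median 5.47) in IMF and 0.25 to 2.42 (median 1.42) in Omen, a difference of 4.24 ± 0.32 (adjusted p = 2.24e-10). Every IMF array lay above every Omen array and above the LD mean of 2.02. MYH11, the smooth muscle myosin heavy chain, was at 3.96 to 7.63 (median 5.49) in IMF and 0.79 to 2.87 (median 1.6) in Omen (3.98 ± 0.34, adjusted p = 1.99e-09), with an LD mean of 2.28. ACTA2, smooth muscle actin, was at 5.34 to 8.48 against 2.68 to 4.73 (3.19 ± 0.23, adjusted p = 1.04e-10). TAGLN (transgelin) differed by 2.14, SORBS2 (an actin-linked adaptor) by 2.76 and MYLK (myosin light chain kinase) by 1.09. CALD1, caldesmon, did not pass the test (−0.17, adjusted p = 0.341). The 8 called genes outside the muscle set all had an IMF mean above LD. All 8 also kept their calls under the covariate, with CNN1 at 3.92 and MYH11 at 3.79.

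Tendon and perimysium genes, which encode the matrix and regulators of dense connective tissue, were higher in IMF in all 10 measured cases, with a median difference of 2.96. The 8 outside the muscle set had a median of 2.58 and a summed signal of 7.25 to 30.8 in IMF and 1.51 to 11.6 in Omen. TNC, tenascin C of the tendon and muscle junction matrix, was at −0.03 to 3.49 (median 1.15) in IMF and −3.90 to −1.69 (median −3.16) in Omen (4.39 ± 0.37, adjusted p = 1.64e-09). MKX, a transcription factor of tendon development, was at −1.87 to 0.34 in IMF and −6.26 to −3.60 in Omen (4.11 ± 0.28, adjusted p = 4.37e-11). Neither gene overlapped between the depots, and the LD means of −1.90 and −3.85 lay below every IMF value of the gene. KERA, the corneal and tendon proteoglycan keratocan, differed by 3.14 (adjusted p = 6.48e-05) with overlapping arrays. TNMD and THBS4, tenomodulin and a thrombospondin of tendon, belong to the muscle set, yet their IMF medians of 0.08 and 3.62 lay above the LD means of −2.64 and 2.84. Under the covariate 3 of the 8 calls outside the muscle set were kept, TNC (4.02), MKX (3.92) and KERA. COMP, cartilage oligomeric matrix protein, went from 2.38 to 1.83 (adjusted p = 0.0711), and FMOD, fibromodulin, from 1.11 to 1.37 (adjusted p = 0.0644). The structural collagens did not follow. COL1A1, COL1A2 and COL3A1 differed by 0.44, 0.53 and 0.04, none past the test, and of 18 collagens 4 were higher in IMF and 5 in Omen. Under the covariate 2 of these 4 and 1 of these 5 calls were kept.

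Schwann cell genes, which make and maintain the sheath of peripheral nerves, were higher in IMF in 10 of 12 cases, 2 of them in the muscle set, with a median difference of 2.46. Outside the muscle set the median of 10 genes was 1.62, and their summed signal overlapped, at 12.3 to 80.6 in IMF and 20 to 33.6 in Omen. Their spread within IMF was wide. PMP2, a fatty acid binding protein of myelin, was at −6.06 to 3.44 against −9.05 to −4.90 (6.22 ± 0.97, adjusted p = 1.18e-05) with an LD mean of −5.54. It was well above background on 7 of 12 Omen arrays, and with normexp the difference was 3.66. GFAP, a filament of glia including non-myelinating Schwann cells, differed by 3.59 and SOX10, the lineage regulator, by 2.34. Only 1 of 2 probes was called for each of these genes, and SOX10 was well above background on 9 of 12 Omen arrays. S100B, which adipocytes also make, was higher in Omen (−0.66, adjusted p = 0.0169, but 0.53 under the covariate), and ERBB3 did not pass the test. L1CAM, an adhesion molecule of axons and glia, was called (0.79), but not without the 5 Omen arrays with high MSLN (0.85, adjusted p = 0.0866). COL28A1, a collagen known from peripheral nerve, was the collagen with the largest difference (4.11 ± 0.68, adjusted p = 2.27e-05). Adding the muscle share kept 7 of the 8 calls outside the muscle set. Its values of 10.48 for PMP2, 6.49 for GFAP and 7.50 for COL28A1 exceed the differences without it. They are extrapolated to IMF without muscle, so their sizes are uncertain.

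**Figure D2:**
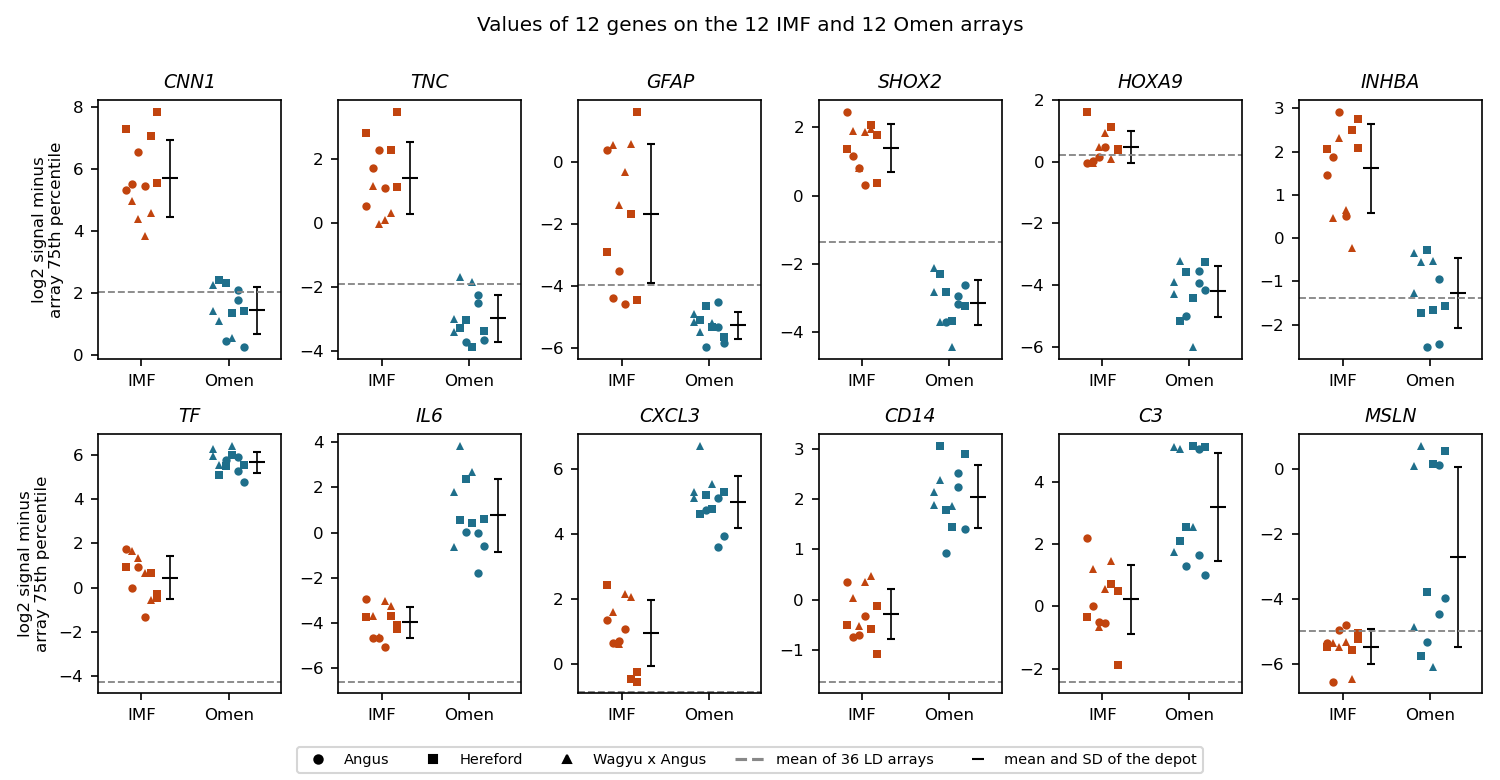
Each panel shows 1 gene on the 12 IMF and 12 Omen arrays as log2 signal minus the array's 75th percentile, with a symbol per breed, the mean and SD of each depot at the side and the mean of 36 LD arrays as a dashed line (INHBA has 11 Omen values). IMF and Omen do not overlap for CNN1, TNC, SHOX2, HOXA9, INHBA, TF, IL6, CXCL3 and CD14, GFAP is widely spread within IMF with its lowest arrays at the top of the Omen range, and C3 and MSLN split the Omen arrays into 5 high and 7 lower ones.

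HOX genes differed in both directions. Of 18 measured, 7 were higher in IMF, 4 were higher in Omen and 7 did not pass the test, with a median of 0.15. The share called was close to the 62.4% over all genes, but it includes 4 genes of the muscle set. Outside that set 3 of 14 were higher in IMF and 4 in Omen, with a median of 0.09. Within the A cluster, HOXA2 (−1.46 ± 0.18, adjusted p = 4.06e-07) and HOXA5 (−1.17 ± 0.13, adjusted p = 1.75e-07) were higher in Omen, whereas HOXA9 and HOXA10 lay far higher in IMF. HOXA9 was at −0.03 to 1.62 (median 0.39) in IMF and −6.02 to −3.22 (median −4.04) in Omen, and HOXA10 was at −3.18 to −1.11 (median −2.43) in IMF and −9.07 to −6.34 (median −8.38) in Omen. HOXA10 was well above background on all 12 IMF arrays and on 1 Omen array. Both fall in the muscle set through their LD means of 0.22 and −1.78, so their differences of 4.67 and 5.73 carry no test, and with normexp that of HOXA10 was 1.73. Their means in subcutaneous fat were 1.36 and 1.36. HOXB2 was higher in Omen without overlap (−1.14 ± 0.11, adjusted p = 1.96e-08), as was HOXB3 (−0.76, adjusted p = 0.000709) with overlap. HOXD4 was at 0.95 to 1.58 (median 1.13) in IMF and −1.42 to −0.23 (median −0.85) in Omen, a difference of 1.96 ± 0.10 (adjusted p = 1.73e-13), and its LD mean of 0.03 was below every IMF array. HOXC6 and HOXC10, both in the muscle set, lay higher in IMF by 1.45 and 2. HOXD10 (0.85) and HOXB7 (0.38) were called higher in IMF with overlap, and both lost the call under several other settings. HOXD10 was well above background on 7 IMF and 3 Omen arrays and stood at 0.12 with normexp, and HOXB7 missed the threshold without the 5 Omen arrays with high MSLN (adjusted p = 0.0764). HOXA3, HOXA4, HOXB4, HOXB9, HOXC4 and HOXC5 were within 0.16 of 0, HOXC13 was at 0.28 (adjusted p = 0.189), and none of them passed the test. HOXB3 (−0.32, adjusted p = 0.474), HOXB7 (0.02) and HOXD10 (0.58) lost their calls with muscle share as a covariate.

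**Figure D3:**
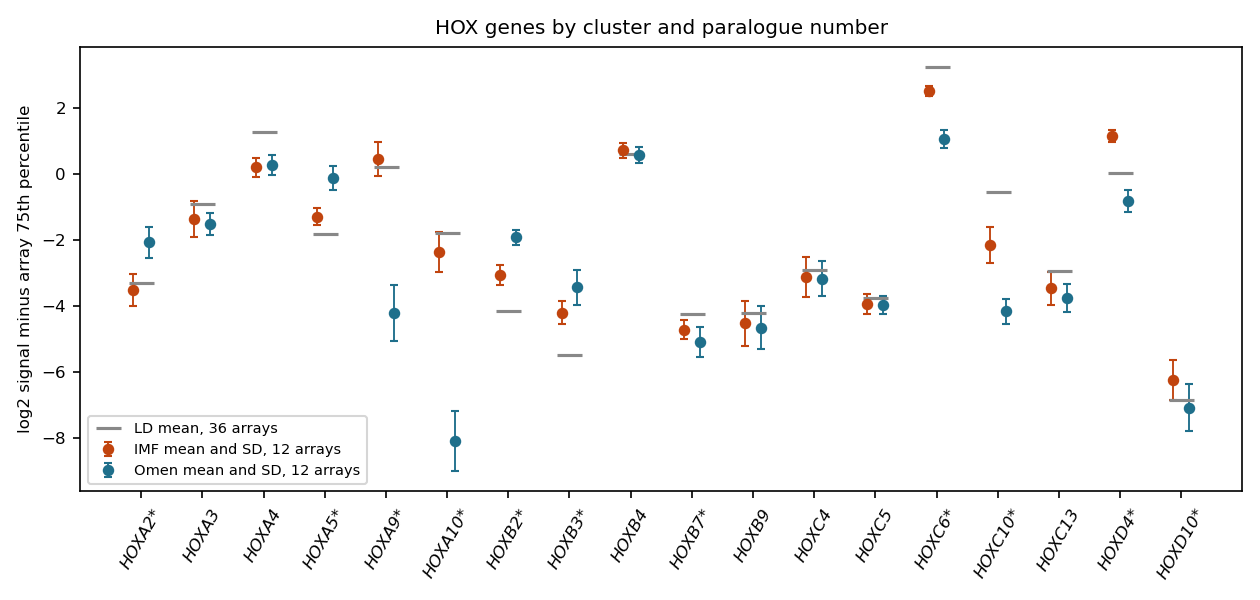
Mean and SD of log2 signal minus the array's 75th percentile for 18 HOX genes on 12 IMF and 12 Omen arrays (HOXD10 and HOXB9 lack 1 value), with the mean of 36 LD arrays as a bar. Asterisks mark an adjusted p under 0.05, and HOXA9, HOXA10, HOXC6 and HOXC10 belong to the muscle set, whose differences are a description. HOXA2 and HOXA5 lie higher in Omen and HOXA9 and HOXA10 higher in IMF.

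Other patterning factors were split as well, with 7 of 18 higher in IMF, 4 higher in Omen and a median of 0.06. The share called, 11 of 18, was again close to the 62.4% over all genes. SHOX2, a homeobox factor of limb and body wall mesenchyme, was at 0.31 to 2.45 (median 1.57) in IMF and −4.44 to −2.13 (median −3.05) in Omen (4.53 ± 0.28, adjusted p = 4.91e-12). LD lay at −1.37, below every IMF array. PRRX1, a marker of limb and body wall mesenchyme, was higher in IMF by 1.28 ± 0.18 (adjusted p = 4.02e-06). IRX5 was higher in Omen (−1.61 ± 0.24, adjusted p = 5.98e-06), as were IRX3 (−0.75) and MEOX1 (−1.12). GATA5, known from the coelomic lining and endoderm, differed by −2.88 ± 0.64 (adjusted p = 0.000585), with 0.95 to 2.09 on the 5 Omen arrays with high MSLN, −3.32 to −1.19 on the other 7 and −4.91 to −1.56 in IMF. Without those 5 arrays its difference was −1.22 (adjusted p = 0.00649). With muscle share as a covariate 3 of the 5 calls for IMF outside the muscle set and 2 of the 4 for Omen were kept, and IRX3 (−0.49, adjusted p = 0.26) and MEOX1 (−0.90, adjusted p = 0.0881) were lost. EN1 belongs to the muscle set.

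Secreted modulators of WNT, BMP and activin signalling were higher in IMF for 8 of 19 genes and in Omen for 3, with a median of 0.32. The share called, 11 of 19, was not above the 62.4% over all genes, and 7 of the 8 lay outside the muscle set. INHBA, the subunit of activin A, was at −0.24 to 2.92 (median 1.98) in IMF and −2.53 to −0.27 (median −1.28) in Omen (2.90 ± 0.37, adjusted p = 1.06e-06), without overlap. Follistatin (FST), which binds and blocks activin, was higher in IMF too, at −0.42 to 2.47 against −1.68 to −0.05 (2.12 ± 0.27, adjusted p = 9.46e-07). So were the WNT antagonists DKK2 (2.14), SFRP4 (2.07) and SFRP1 (1.74) and the related DKK3 (2.01). On the Omen side stood GREM1, a BMP antagonist (−2.14 ± 0.49, adjusted p = 0.000823), with the ligands BMP4 (−0.86) and BMP2 (−0.42). LD was below IMF for 7 of the 8 genes higher in IMF. Under the covariate all of those named here stayed higher in IMF, with FST at 3.02 and INHBA at 2.06. None of the 3 genes higher in Omen kept its call, with GREM1 at −0.42 (adjusted p = 0.739), BMP4 at −0.63 (adjusted p = 0.229) and BMP2 at −0.06 (adjusted p = 0.886).

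Sterol genes gave 1 large difference in favour of IMF. CH25H, which makes 25-hydroxycholesterol, was at 1.20 to 3.68 (median 2.71) in IMF and −0.89 to 2.74 (median 0.16) in Omen (2.25 ± 0.30, adjusted p = 1.46e-06), with overlapping arrays and a mean of −1.32 in LD. The difference was 2.40 with muscle share as a covariate. CYP27A1, which makes 27-hydroxycholesterol, ran the other way without overlap, at 1.31 to 2.60 in IMF and 2.87 to 3.65 in Omen (−1.21 ± 0.15, adjusted p = 5.61e-07). FDFT1, squalene synthase, was higher in IMF by 1.10 ± 0.12 (adjusted p = 7.09e-08), but its LD mean of 3.55 lay above every IMF array. In all, 9 of 15 genes of the list were higher in Omen and 3 in IMF, with a median of −0.53. Without the 5 Omen arrays with high MSLN 2 of the 3 calls for IMF were kept, with MVK at 0.30 (adjusted p = 0.0753). None of the 9 kept its call with muscle share as a covariate, when CYP27A1 stood at −0.48 (adjusted p = 0.0614).

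Among genes higher in Omen, the 12 with the largest differences without overlap were GARIN4, TF, IL6, CXCL3, GRO1, CCL8, CXCL2, SDR16C5, CCL2, CXCL8, DEFB4A and S100A8, from −6.39 to −3.12. Omen had the highest mean of the 5 fat depots for 10 of them, though for CXCL3 it was 4.99 against 4.97 in subcutaneous fat. With muscle share as a covariate 11 of the 12 kept their call, the exception being DEFB4A, a defensin (−1.92, adjusted p = 0.123). TF, the iron carrier transferrin, was at −1.33 to 1.76 (median 0.66) in IMF and 4.78 to 6.38 (median 5.65) in Omen, a difference of −5.22 ± 0.29 (adjusted p = 8.07e-13). It was at 4.93 in subcutaneous fat on average and at −4.24 in LD. GARIN4 was at −8.62 to −5.18 in IMF, with 2 of 12 arrays well above background, and at −3.85 to 0.94 in Omen (−6.39 ± 0.51, adjusted p = 5.57e-10). With its IMF values mostly at background the size is uncertain, and normexp gave −3.42. SDR16C5, a retinol dehydrogenase, was at −6.42 to −4.66 against −3.11 to 0.22 (−3.58 ± 0.24, adjusted p = 3.79e-11).

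Of these 12 genes, CXCL3, GRO1, CCL8, CXCL2, CCL2 and CXCL8 are chemokines. IL6, the acute-phase cytokine, was at −5.08 to −2.96 (median −3.90) in IMF and −1.80 to 3.82 (median 0.47) in Omen (−4.73 ± 0.41, adjusted p = 3.07e-09). Omen arrays varied widely and still did not overlap with IMF. CXCL8, the neutrophil attractant interleukin-8, was at −4.27 to −3.11 in IMF and −1.41 to 3.2 in Omen (−3.24 ± 0.37, adjusted p = 2.09e-07). CXCL3, GRO1 and CXCL2, near relatives whose probes may share sequence, differed by −4.03, −3.96 and −3.67. CCL2 and CCL8, which draw monocytes, differed by −3.58 and −3.79, and S100A8, a subunit of the neutrophil protein calprotectin, was at −3.84 to −1.40 against −0.55 to 2.20 (−3.12 ± 0.32, adjusted p = 3.42e-08). Without the 5 Omen arrays with high MSLN, IL6 stood at −4.44, CXCL8 at −2.79 and CCL2 at −3.08, all still past the threshold.

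Immediate early genes, which respond within minutes to stress and handling of tissue, moved with the same groups. Of 14, 9 were higher in Omen, with a median of −0.98, and their summed signal was 117 to 271 in IMF and 141 to 610 in Omen. FOS was at 3.07 to 4.85 (median 3.59) in IMF and 4.01 to 6.28 (median 5.80) in Omen (−1.84 ± 0.23, adjusted p = 8.52e-07). MYC was at 0.45 to 2.31 against 2.79 to 4.02 (−2.03 ± 0.18, adjusted p = 2.77e-09) and was the only gene of the list without overlap, while ATF3 and NR4A1 did not pass the test. NR4A3 alone was called higher in IMF (0.43), but not without the 5 Omen arrays with high MSLN (0.39, adjusted p = 0.143) nor under many other settings. Of the 9 calls 5 were kept with muscle share as a covariate, and EGR1 (−1.08, adjusted p = 0.119), JUN, JUNB and DUSP1 were lost. Their part in the cytokine differences was not tested.

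Macrophage genes were higher in Omen in all 10 measured cases, with a median difference of −1.87 and a summed signal of 10 to 49.5 in IMF and 34.9 to 174 in Omen. CD14, the endotoxin co-receptor, was at −1.09 to 0.47 (median −0.42) in IMF and 0.92 to 3.05 (median 2.01) in Omen (−2.32 ± 0.22, adjusted p = 1.24e-08), without overlap. VSIG4, a complement receptor of resident macrophages, was at −3.76 to −0.80 against −1.26 to 1.43 (−2.37 ± 0.34, adjusted p = 4.64e-06). MSR1, a scavenger receptor, differed by −2.33 and CSF1R, the receptor that sustains the lineage, by −1.64. The means in subcutaneous, intermuscular and kidney fat for CSF1R, at 3.1, 3.68 and 3.51, were all above the Omen median of 3.01. With muscle share as a covariate 7 of the 10 calls were kept, and CD163 was lost (−1.08, adjusted p = 0.0661). Among B and T cell genes 9 of 13 were higher in Omen and PAX5 alone in IMF, with a median of −1.10. Without the 5 Omen arrays with high MSLN 7 of the 9 calls were kept, with CD2 (−0.30, adjusted p = 0.115) and CD5 (−0.69, adjusted p = 0.0695) lost, and with muscle share as a covariate 7 were kept, with CD2 (−0.29, adjusted p = 0.388), CXCL13 (−1.51, adjusted p = 0.0584, against −1.37 without the covariate) and PAX5 lost. CD3G, a subunit of the T cell receptor complex, was at −5.38 to −4 in IMF and −3.88 to −1.74 in Omen (−1.64 ± 0.21, adjusted p = 1.12e-06). CCR7, the homing receptor for lymphoid tissue, and CR2, a B cell complement receptor, differed by −2.18 and −2.12, whereas the B cell genes CD79A (−0.06) and MS4A1 (−0.19) did not pass the test. The summed signal of the list overlapped, at 9.34 to 13.8 in IMF and 7.62 to 16.0 in Omen.

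Several complement genes and mesothelial markers moved with the split of the Omen arrays. Of 18 complement genes 12 were higher in Omen and C6 alone in IMF, with a median of −0.84. C3, the central component, was at −1.88 to 2.21 (median 0.27) in IMF and 1.02 to 5.16 (median 2.56) in Omen (−2.97 ± 0.57, adjusted p = 0.000122), but the 5 Omen arrays with high MSLN lay at 5.07 to 5.16 and the other 7 at 1.02 to 2.56. The same split was seen for CFB, factor B of the alternative pathway, at 5.32 to 5.90 and 1.80 to 3.83, and for CFI, the inactivating protease, at 1.10 to 3.19 and, on 6 of the 7 others, −2.30 to 0.07. Without the 5 arrays 7 of the 12 calls were kept, with C3 at −1.64 (adjusted p = 0.0044), CFB at −1.27 (adjusted p = 0.0291) and CFI at −1.42 (adjusted p = 0.0046), while C1R (−0.34), C1S (−0.50), C2 (−0.31), C4A (−0.59) and CD59 (−0.30) no longer passed. Properdin (CFP) was at −1.96 to −0.13 in IMF and −0.10 to 1.52 in Omen, without overlap (−2.03 ± 0.21, adjusted p = 3.85e-08), and was at −1.96 without the 5 arrays. With muscle share as a covariate only CFP (−1.59) and adipsin, CFD (−1.19), kept their calls among the 12, and CFI missed the threshold at −2.42 (adjusted p = 0.0609).

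Of 9 mesothelial markers measured, MSLN, UPK3B and CLDN15 were higher in Omen and KRT18 was higher in IMF, while KRT8, KRT19, UPK1B, CLDN1 and PDPN did not pass the test. Their summed signal was 40.2 to 92.2 in IMF and 36.9 to 95.1 in Omen. MSLN differed by −2.75 ± 0.79 (adjusted p = 0.00519), and by −0.55 without the 5 arrays that it chose. UPK3B, whose Omen values split the same way, differed by −1.37 and, without these arrays, by −0.19. KRT18, a keratin of simple epithelia, was at −3.45 to 3.78 in IMF, 0.40 to 1.6 on the 5 Omen arrays and −4.96 to −2.80 on the other 7. Its difference of 2.31 (adjusted p = 0.0425) lost its call under several other settings. Without the 5 arrays, which held its highest Omen values, it was 4.20 as a description, and with muscle share as a covariate it was 5.36. Under that covariate none of the 3 genes higher in Omen kept its call, with CLDN15 at −0.59 (adjusted p = 0.303), but MSLN and UPK3B at −3.24 (adjusted p = 0.113) and −2.02 (adjusted p = 0.0537), no smaller than before.

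Endothelial genes were higher in Omen in 10 of 11 cases, with a smaller median difference of −0.90 and a summed signal of 39.7 to 84.0 in IMF and 82.8 to 155 in Omen. ESAM, an adhesion molecule of endothelial junctions, was at 1.19 to 1.93 in IMF and 2.16 to 3.28 in Omen (−1.17 ± 0.13, adjusted p = 7.49e-08). CLDN5, claudin of vascular junctions, was at 3.76 to 5.10 against 5.15 to 6.21 (−1.08 ± 0.16, adjusted p = 7.12e-06), and TIE1 did not pass the test. ROBO4 was called both ways by its 2 probes. With muscle share as a covariate 3 of the 10 calls were kept, and CLDN5 was lost (−0.39, adjusted p = 0.231). Of 5 lymphatic endothelial genes, PROX1 lay higher in IMF by 2.05 but belongs to the muscle set, RELN (1.78) and CCL21 (1.11, lost under several other settings) were higher in IMF and LYVE1, which macrophages also carry, was higher in Omen (−0.97, and −0.56 with adjusted p = 0.398 under the covariate). Collagens of the basement membrane were split, with COL4A2 at 1.42 to 2.32 in IMF and 2.40 to 3.76 in Omen (−1.18 ± 0.12, adjusted p = 3.81e-08) and COL4A1 at −0.86, whereas COL4A6 (1.55 ± 0.46, adjusted p = 0.00695) and COL4A5 (1.01 ± 0.40, adjusted p = 0.0326) were higher in IMF with overlap. Without the 5 Omen arrays with high MSLN, COL4A6 and COL4A5 were at 2.57 and 1.86, while COL4A5 lost its call under many other settings. Of these 4 genes, COL4A2 alone kept its call with muscle share as a covariate.

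**Figure D4:**
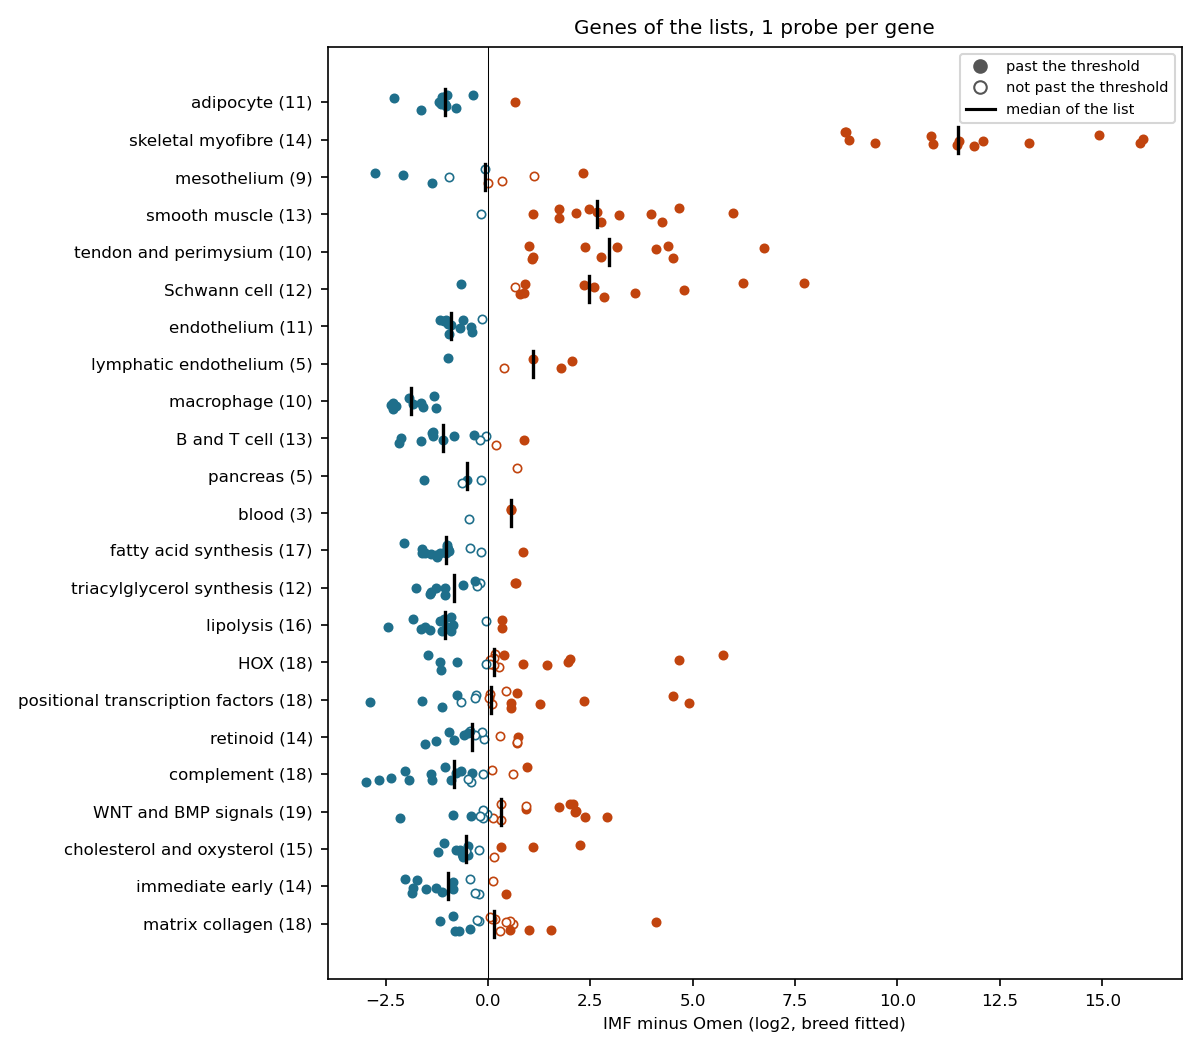
Each point is 1 gene of a list at its IMF minus Omen difference (log2, breed fitted), filled where the adjusted p is under 0.05 and open where it is not, with the median of the list as a bar and the number of genes measured in parentheses. Smooth muscle, tendon and Schwann cell genes lie to the right, with medians of 2.66, 2.96 and 2.46, and macrophage genes lie furthest to the left, with a median of −1.87.

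Adipocyte genes were higher in Omen in 10 of 11 cases, with a median of −1.05 and a summed signal of 252 to 799 in IMF and 601 to 998 in Omen. By ADIPOQ and PLIN1 the adipocyte label of both depots held, since every array had these genes far above the LD means of −1.81 and −1.88. The LD mean was below both depot means for all 10 genes higher in Omen. For AQP7, however, the LD mean of 1.56 lay above the lowest IMF array (0.82). The LD mean of GPD1, 7.24, lay above every array of both depots. LEP, leptin, was at −3.46 to 0.00 (median −1.40) in IMF and 0.18 to 2.12 (median 0.92) in Omen (−2.29 ± 0.28, adjusted p = 4.21e-07), and was the only gene of the list without overlap. PLIN1, the coat protein of the lipid droplet, was at 1.75 to 4.71 (median 3.38) in IMF and 4.33 to 5.06 (median 4.55) in Omen (−1.12 ± 0.23, adjusted p = 0.000284). ADIPOQ, adiponectin, was at 1.40 to 4.08 (median 2.98) against 3.42 to 4.5 (median 4.02), a difference of −1.05 ± 0.24 (adjusted p = 0.000873). With the muscle share as a covariate PLIN1 and ADIPOQ both stood at 0.07, and LEP was the only one of the 10 to keep its call (−1.06, adjusted p = 0.0454). FABP4 (−0.37, adjusted p = 0.0169) also missed the threshold without the 5 Omen arrays with high MSLN (adjusted p = 0.0542).

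**Figure D5:**
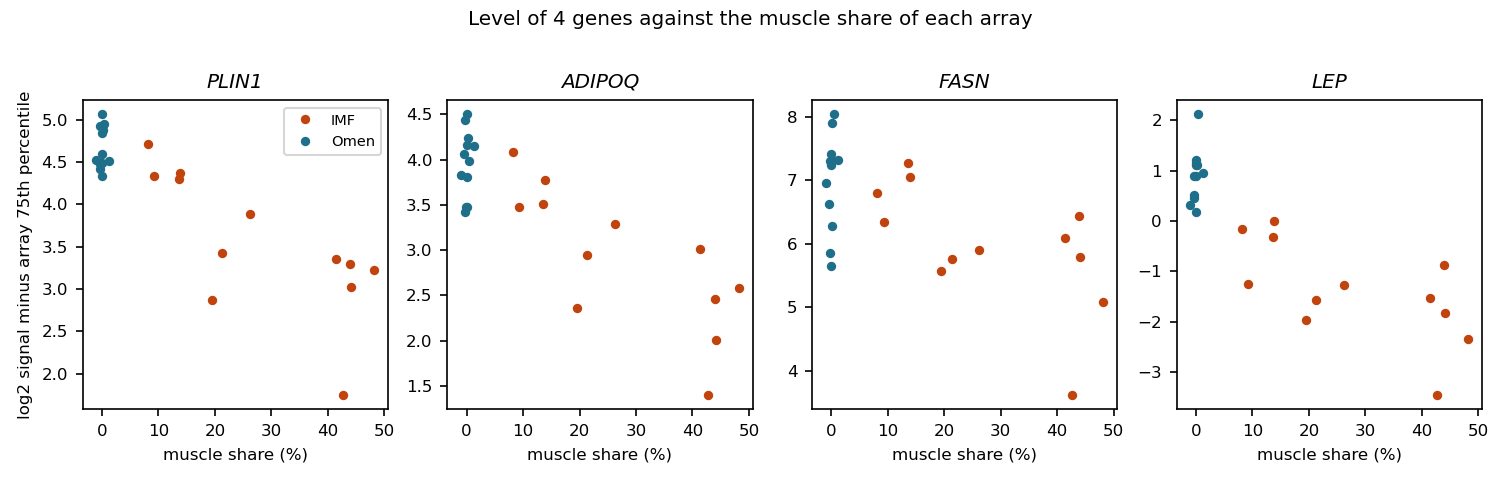
Log2 signal minus the array's 75th percentile of PLIN1, ADIPOQ, FASN and LEP is plotted against the muscle share of each array in percent, with 12 IMF and 12 Omen arrays. The Omen arrays lie near 0% and the IMF arrays from 8.13% to 48.2%, and the IMF arrays with the lowest shares have PLIN1 and ADIPOQ values within the range of the Omen arrays.

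Genes of fatty acid synthesis were higher in Omen in 14 of 17 cases, with a median of −1.03 and no gene without overlap. THRSP, a regulator of lipogenesis, was at 0.94 to 5.70 (median 3.78) in IMF and 4.15 to 6.83 (median 6) in Omen (−2.06 ± 0.36, adjusted p = 5.34e-05). SCD, the stearoyl-CoA desaturase that makes oleate, differed by −1.24, FASN, fatty acid synthase, by −1.02, and IDH1 and ELOVL5, a source of NADPH and an elongase, by −1.61 and −1.60. FADS2, the delta-6 desaturase, ran against the list at −0.83 to 0.75 in IMF and −2.33 to −0.23 in Omen (0.85 ± 0.18, adjusted p = 0.000368). Its LD mean was 0.34, and it stood at 1.25 with muscle share as a covariate, under which none of the 14 genes higher in Omen kept its call.

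Triacylglycerol synthesis and lipolysis gave similar counts, with 8 of 12 and 13 of 16 genes higher in Omen and medians of −0.84 and −1.06. PCK1, which feeds glycerol formation, differed by −1.75, GPAT3, which starts glycerolipid assembly, by −1.41 and DGAT2, the last step, by −1.38. GPD1 alone was higher in IMF, but it belongs to the muscle set. Among lipolytic genes, ADRB3, the beta-3 adrenergic receptor, was at −4.41 to −1.02 in IMF and −2.67 to 1.42 in Omen (−2.45 ± 0.45, adjusted p = 8.16e-05), and G0S2, the inhibitor of adipose lipase, differed by −1.83. PLIN2 was at 0.55 to 2.39 in IMF and 2.78 to 3.57 in Omen, without overlap (−1.55 ± 0.15, adjusted p = 1.55e-08). ADRB1 and the inhibitory receptor ADRA2A were higher in IMF by 0.34 and 0.35, with LD above IMF for both, and both calls were lost under several other settings. With muscle share as a covariate AGPAT3 and GK were the only genes of triacylglycerol synthesis to keep their calls of the 8, and 3 of the 13 calls for lipolysis were kept, among them PLIN2 (−0.92), but not G0S2 (−0.89, adjusted p = 0.0534) or ADRB3 (−1.85, adjusted p = 0.105). ADRB1 and ADRA2A lost theirs as well.

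Retinoid genes were higher in Omen in 6 of 14 cases and in IMF in 2, with a median of −0.38. With 8 of 14 called, their share was not above the 62.4% over all genes. RARRES2, chemerin, was at 2.14 to 3.48 in IMF and 3.86 to 4.83 in Omen (−1.26 ± 0.14, adjusted p = 1.88e-07), and RARRES1 differed by −1.55. STRA6, the retinol transporter, did not pass the test (0.29, adjusted p = 0.835), with values of −0.43 to 2.31 on the 5 Omen arrays with high MSLN, −6.15 to −3.37 on 6 of the other 7 and −5.66 to 1.13 in IMF. DHRS3, which returns retinal to retinol, was higher in IMF (0.73 ± 0.17, adjusted p = 0.00073), as was CYP26A1, which breaks down retinoic acid (0.70), but not without the 5 Omen arrays (0.71, adjusted p = 0.0917). RARRES2 was the only gene of the 6 to keep its call with muscle share as a covariate.

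The difference between the depots was not shown to depend on breed. The limma interaction of depot and breed called 0 of 34227 probes (0%), with 2446 at an unadjusted p under 0.05 and a lowest adjusted p of 0.47, from 4 arrays per breed and depot. Within single breeds, with 4 arrays against 4, the number of probes called outside the muscle set was 4718 for Wagyu x Angus, 7609 for Hereford and 7490 for Angus.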

How the data were processed

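RNA was labelled with Cy3 and hybridised to Agilent 4x44K bovine arrays, scanned and extracted with Feature Extraction. The authors deposited scanner files with the processed signal as intensity (background corrected by that software), and a value table in log2. In every one of its 3285792 cells that table equalled log2 of median signal minus median background, within 1e-04, with no scaling between arrays. Here log2 processed signal minus the array's 75th percentile was used for the 34227 probes of the table, without control and outlier spots (5184 values missing). The precision is limited by 12 arrays per depot.

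IMF and Omen were compared by limma 3.58.1 (R 4.3.3, with version 1.17.8 of data.table) with breed as a covariate and Benjamini-Hochberg adjustment. Muscle probes were set apart at LD minus Omen over 2. Gene symbols came from RefSeq accessions and from the symbols the study lists for its probes (21454 probes, 62.7%). Unnamed probes and LOC symbols were not named here. A list gene was read by its brightest probe. Of 6341 genes with several probes, 235 had probes called in both directions. Named genes were the 12 largest differences each way outside the muscle set, without overlap and above background on all arrays of the higher depot, the 4 largest inside it, the 3 largest each way in each list and list genes that the study discusses. Other genes of a list named for contrast were chosen after their values were seen. Members and lists were chosen with earlier results of these data known. Correlations were tested over all permutations (scipy 1.17.1, numpy 2.4.6, Python 3.11.15), and figures were drawn with matplotlib 3.10.9. The test was tested on simulated data. Alternatives were other scalings, background corrections (normexp with offset 50 on median spot and background signals), probe filters, tests, blocks, muscle limits, single breeds and left-out arrays. Some genes count in their lists but are not reported here. No genome was used.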

Additional observations from a re-analysis of the deposited data

How the results depend on the processing

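The number of called probes (19619), those outside the muscle set (17007) and the called entries of the lists (224 of 295, which are 290 genes, since some stand in 2 lists) stayed within 1.5 times under other scalings, filters, tests and blocks. Leaving out 1 array gave 18721 to 20083, 16128 to 17460 and 218 to 227. Fewer arrays gave fewer calls: within Angus 9887, 7490 and 140, within Hereford 9636 and 7609, and within Wagyu x Angus 6639, 4718 and 114. With the muscle share as a covariate 5342 probes outside the muscle set and 115 list entries were called. Setting apart every probe with LD above Omen left 10055 calls. The replicate number of the labels is the array's position on its slide and pairs no animals, and with it as a block 19461 probes, 16842 outside the muscle set and 221 list entries were called.

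The split moved with the processing, but little with the signal measure where the scaling was kept. The value table minus the 75th percentile gave 47.5% of calls higher in IMF (40.3% outside the muscle set, chosen anew at 2341 probes). The normexp values, like the unscaled value table, were not scaled between arrays. Of all calls 49.7% were higher in IMF (42.0% outside the muscle set), against 30.4% and 27.1% with normexp and 28.4% and 23.9% for the unscaled value table, with median differences of −0.11 and −0.19 and the muscle set chosen anew at 850 and 1103 probes, and against 31.2% outside the muscle set with array mean centring. The split was 60.2% within Angus, and outside the muscle set 30% within Hereford, 29.9% within Wagyu x Angus 27.8% with the muscle limit at 1 and 10.3% with it at 0. The cause was not tested. Breed dependence stayed at 0 called probes under 7 alternatives, with a lowest adjusted p between 0.211 and 0.695.

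Of 232 called genes followed one by one, 200 kept the call under every setting other than single breeds, left-out arrays and the muscle share. No called gene changed sign under another scaling. With the muscle share as a covariate 19 did: FABP4 0.08, LPL 0.17, ADIPOQ 0.07, PLIN1 0.07, S100B 0.53, CELA1 0.08, FASN 0.19, ADRA2A −0.09, LIPE 0.04, CYP26A1 −0.35, LRAT 0.25, C1R 0.31, C1S 0.39, C4A 0.58, MSMO1 0.21, CYP51A1 0.11, LSS 0.01, COL5A1 0.04 and COL5A3 0.02. Within Wagyu x Angus, HBA (−0.15) and COL4A5 (−0.14) did.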

Other observations

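Among the 12 IMF arrays COL28A1, a collagen known from peripheral nerve, keratins, claudin-1 and the retinol transporter STRA6 varied widely. On the 5 arrays with shares of 41.4% to 48.2% COL28A1 lay between −4.09 and −1.28, KRT18 between −3.45 and −0.22, KRT8 between −2.31 and 0.87, CLDN1 between −2.32 and −0.20 and STRA6 between −5.66 and −1.72. On the other 7 arrays COL28A1 lay between −1.74 and 2.06, KRT18 between −0.89 and 3.78, KRT8 between −0.18 and 3.76, CLDN1 between −1.08 and 2.92 and STRA6 between −4.61 and 1.13. The ranges overlapped for all 5 genes. These genes were chosen after their values were seen, and no test was made.

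The muscle shares of the IMF arrays lay in 2 clusters, so no pooled correlation with them is given. In the lower cluster of 7 arrays PLIN1, ADIPOQ and FASN had r of −0.69, −0.63 and −0.66 (exact permutation p = 0.0867, 0.125 and 0.108, adjusted p = 0.125 for each) and rho of −0.75, −0.71 and −0.57 (exact permutation p = 0.0663, 0.0881 and 0.2, adjusted p = 0.132, 0.132 and 0.2), of 3 relations computed in all. Without the 2 farthest arrays r was −0.89, −0.85 and −0.49. None passed the adjustment.

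Markers of other tissues were low or split. Of 5 pancreas genes CELA1 (−0.51) and CPB1 (−1.57) were higher in Omen, with a summed signal of 0.622 to 2.76 in IMF and 0.832 to 3.56 in Omen. Of 3 blood genes HBA and AHSP, both of red cells, were higher in IMF by 0.56 and 0.56, and HBB did not pass the test. HBA and AHSP each lost the call under 3 other settings. Without the 5 Omen arrays with high MSLN, CPB1 (−0.84, adjusted p = 0.144) and AHSP (0.54, adjusted p = 0.0653) lost their calls, and with muscle share as a covariate none of these 4 genes kept its call, with CELA1 at 0.08 and AHSP at 0.11, but CPB1 at −1.99 (adjusted p = 0.0796) and HBA at 0.79 (adjusted p = 0.0711).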
